A study of Homo sapiens with 6 samples.

Results

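The S100 genes encode small calcium-binding proteins, and 9 of them were followed here in Mon-Mac-6, a monocytic leukaemia line long kept in culture: S100A4, S100A6, S100A8, S100A9, S100A10, S100A11, S100A12, S100A13 and S100P. They were chosen by gene symbol, and each matched 1 of the 31853 genes of the deposited table. Poly(A) RNA was sequenced from 3 libraries of cells given DMSO, the solvent control, and from 3 libraries of cells given 500 nM WD6305, all for 48 h, with no other allele or agent recorded for either group. The series title names WD6305 as a PROTAC against METTL3, the enzyme that writes N6-methyladenosine on messenger RNA. A PROTAC is a molecule that brings its target to a ubiquitin ligase. No label says whether each library had a culture of its own, so p-values measure the spread between these libraries, which may be technical.

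S100 proteins carry a pair of EF-hand loops that bind calcium, mostly act as dimers, and change shape on binding calcium so that they can grip a partner protein. S100A8 and S100A9 pair to form calprotectin, a major cytosolic protein of neutrophils and monocytes, and S100A12 is the third calgranulin of these cells. All 3 can be released at sites of inflammation, where they are recognised by receptors such as TLR4 and RAGE. The relatives S100A4, S100A6, S100A10 and S100A11 are made in many cell types and work mainly with annexins, myosin and other partners inside the cell.

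Of the 9 genes, 8 lie on chromosome 1 (GRCh38), and S100P lies on chromosome 4 from 6693878 to 6697170, plus strand. The calgranulin genes are neighbours on chromosome 1: S100A9 spans 153357854 to 153361023 on the plus strand, S100A12 spans 153373711 to 153375621 on the minus strand, and S100A8 spans 153390032 to 153391073 on the minus strand. S100A10 (151982915 to 151993859) and S100A11 (152032506 to 152047907) lie on one side of them, and S100A6 (153534599 to 153536215), S100A4 (153543613 to 153550136) and S100A13 (153618787 to 153631360) on the other, all on the minus strand.

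The 250 bases before the start are shown for the 3 calgranulins, whose RNA rose together, and for S100A11, whose RNA fell. They are RefSeq sequences of GRCh38.p14, written 5′ to 3′ on the strand of the gene, from chr1:153391074-153391323 (S100A8, minus strand), chr1:153357604-153357853 (S100A9, plus strand), chr1:153375622-153375871 (S100A12, minus strand) and chr1:152037005-152037254 (S100A11, minus strand). Capitals mark matches, on either strand, to TATAAA, the TATA box, to TTNNGNAA, a loose motif of the C/EBP family of myeloid factors, and to GAGGAA, a motif of PU.1, the factor encoded by SPI1.
S100A8: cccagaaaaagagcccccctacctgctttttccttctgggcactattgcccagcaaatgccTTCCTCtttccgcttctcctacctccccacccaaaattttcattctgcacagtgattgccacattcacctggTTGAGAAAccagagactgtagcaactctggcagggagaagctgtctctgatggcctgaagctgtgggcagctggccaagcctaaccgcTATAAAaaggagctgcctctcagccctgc
S100A9: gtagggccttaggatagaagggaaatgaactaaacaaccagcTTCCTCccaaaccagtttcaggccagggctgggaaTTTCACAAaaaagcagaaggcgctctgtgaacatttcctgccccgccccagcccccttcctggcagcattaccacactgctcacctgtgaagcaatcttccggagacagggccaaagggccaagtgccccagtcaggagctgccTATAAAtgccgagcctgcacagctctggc
S100A12: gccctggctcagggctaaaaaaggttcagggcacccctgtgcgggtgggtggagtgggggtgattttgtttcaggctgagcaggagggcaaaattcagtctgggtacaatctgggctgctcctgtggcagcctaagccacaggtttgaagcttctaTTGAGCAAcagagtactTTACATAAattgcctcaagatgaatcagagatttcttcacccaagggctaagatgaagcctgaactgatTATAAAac
S100A11: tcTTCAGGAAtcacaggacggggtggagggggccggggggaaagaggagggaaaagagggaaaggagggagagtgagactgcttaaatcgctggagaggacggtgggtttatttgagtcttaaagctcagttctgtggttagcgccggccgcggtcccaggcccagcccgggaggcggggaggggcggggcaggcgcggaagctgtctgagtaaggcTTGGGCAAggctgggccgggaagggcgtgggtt
The TATA box letters lay 29 to 24 bases before the start in both S100A8 and S100A9, and 8 to 3 bases before it in S100A12. They were found in 5 of the 9 promoters (S100A4, S100A8, S100A9, S100A12 and S100P), against 10.7% of 35116 RefSeq promoters of that length. The C/EBP letters were found in 6 of the 9 (S100A6, S100A8, S100A9, S100A11, S100A12 and S100P), against 33.2% of promoters. S100A12 held TTGAGCAA and TTACATAA, S100A11, whose RNA fell, held TTCAGGAA and TTGGGCAA, and S100P held TTCCAGAA and TTCCTGAA. The PU.1 letters, which read on the opposite strand of those printed, were found in S100A8 and S100A9, 2 of the 9, against 23.6%. None of the 3 motifs overlapped another in the printed sequences. G and C made up 53.2%, 55.6% and 49.2% of the bases in S100A8, S100A9 and S100A12, and 63.6% in S100A11. In the members that did not pass, the share was 62.8% (S100A4), 70.0% (S100A6), 71.2% (S100A10), 63.2% (S100A13) and 55.6% (S100P). The median promoter had 58.0%, with quartiles of 46.4% and 68.0%. The S100A11 start used by RefSeq lies 10903 bases downstream of the gene's 5′ end in the deposited table. The start used lay 4330 bases from that end for S100A4, 3001 for S100A13 and 224 for S100A6. S100A8 and S100A13 have 3 RefSeq promoters each, and the one nearest to that end was used. A match to a motif is a description of these letters, and binding was not measured.

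The calgranulins rose under WD6305, S100A11 fell, and the other 5 genes did not pass the test. S100A12 was 2.43-fold, S100A8 2.05-fold and S100A9 1.72-fold higher, and S100A11 was 1.25-fold lower (edgeR quasi-likelihood test, Benjamini-Hochberg adjusted p under 0.05 over 18138 tested genes, 3 libraries per group). All 9 genes entered the test. Of all tested genes, 12.2% were called higher and 11.2% lower, or 23.4% in either direction, beside 3 and 1 of the 9. DESeq2 called 4 of the 9 higher, adding S100A4, and 1 lower, beside 17.3% and 17.0% of the genes it gave an adjusted p. The libraries of the groups did not overlap for 4 of the 9, the same 4 genes, while this held for 40.8% of all tested genes. The median log2 fold change was 0.32 over the 9 and 0.00 over all tested genes. In bulk RNA, more cells of a type and more RNA per cell cannot be told apart.

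**Figure D1:**
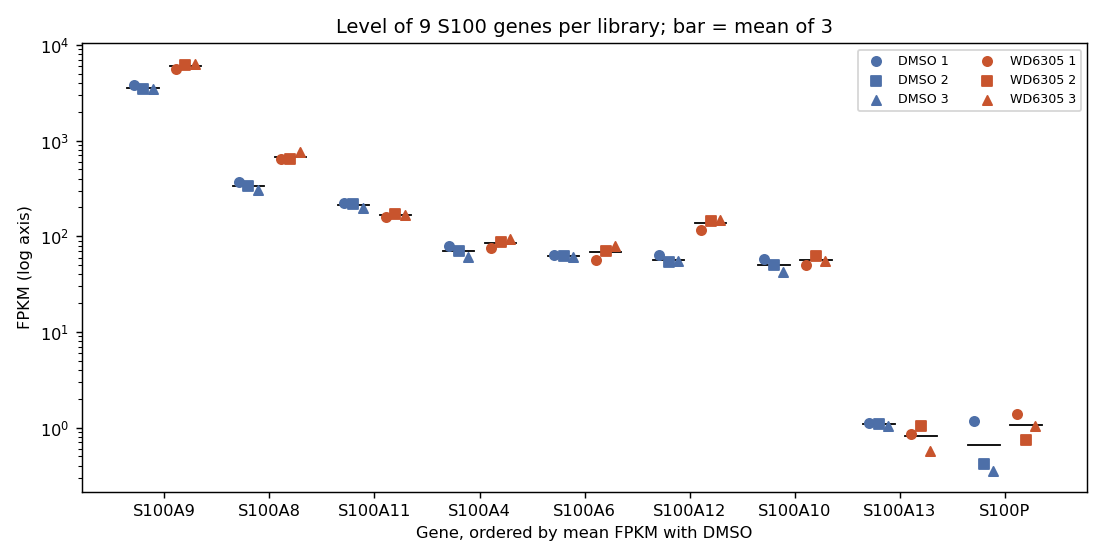
FPKM (log axis) of the 9 S100 genes in each library, ordered by the mean with DMSO; points are libraries, shaped by replicate number, and bars are means of 3. The WD6305 points lie above the DMSO points for S100A9, S100A8 and S100A12 and below them for S100A11, and S100A13 and S100P lie near 1 FPKM.

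Per transcript length the members spanned more than 3 orders of magnitude. With DMSO the order by mean FPKM was S100A9, S100A8, S100A11, S100A4, S100A6, S100A12, S100A10, S100A13 and S100P. S100A9 stood at 3579 ± 167 FPKM (SD, n = 3), S100A8 at 335 ± 30.5 and S100A11 at 211 ± 13.1. S100A4 (69.6 ± 9.05 FPKM), S100A6 (62.2 ± 1.99), S100A12 (57.1 ± 5.28) and S100A10 (50.4 ± 8.02) followed, and the libraries of each overlapped those of its neighbour in that order. S100A13 (1.08 ± 0.035) and S100P (0.65 ± 0.460) overlapped at the bottom. With WD6305, S100A12 stood at 136.9 ± 17.2 FPKM, above S100A4, S100A6 and S100A10 in every library, and still below S100A11 at 165.9 ± 4.49.

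S100A9 is the larger partner of calprotectin and the subunit that is phosphorylated when phagocytes are stimulated. Its level was 2298, 2117 and 2052 CPM (CPM is the count relative to the library total, with TMM scaling) in DMSO 1, 2 and 3, and 3472, 3739.8 and 3914 CPM in WD6305 1, 2 and 3. Every WD6305 library was above every DMSO library, with the lowest in DMSO 3 and the highest in WD6305 3. This was a rise of 0.78 ± 0.07 (log2, SE) with adjusted p = 0.00014 in edgeR. By FPKM, S100A9 ranked 10th of all genes in each DMSO library, and 6th, 4th and 3rd in WD6305 1, 2 and 3. It made up 1.23% to 1.31% of the summed FPKM with DMSO and 1.96% to 2.18% with WD6305.

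S100A8 is the smaller partner, which with S100A9 binds zinc and manganese and so withholds them from microbes. Its level was 348, 313 and 282 CPM with DMSO and 605, 603 and 729 CPM with WD6305. The lowest WD6305 library was above the highest DMSO library, and WD6305 3 was the highest of all. The rise was 1.04 ± 0.10 (log2, SE), with adjusted p = 0.00018 in edgeR. Its FPKM rank moved from between 83 and 91 with DMSO to between 35 and 44 with WD6305.

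S100A12, or calgranulin C, is a ligand of the receptor RAGE and has no counterpart in mice. It was measured at 32.6, 27.4 and 27.4 CPM with DMSO and at 60.7, 74.8 and 77.3 CPM with WD6305. WD6305 1 was the lowest of its group, and DMSO 1 the highest of the controls, and they did not meet. Its rise of 1.28 ± 0.11 (log2, SE) had adjusted p = 0.00013 in edgeR, and its FPKM rank moved from between 593 and 712 to between 201 and 258.

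The ratios between the 3 calgranulins lay in separate ranges with DMSO and with WD6305, in a design too small to pass a threshold of 0.05. The count ratio of S100A8 to S100A9 within a library does not depend on how libraries are scaled. On the log2 scale it was -2.72, -2.76 and -2.86 with DMSO and -2.52, -2.63 and -2.42 with WD6305, a difference of 0.26 toward S100A8, with no overlap. The ratio of S100A12 to S100A9 differed by 0.50, from -6.21 ± 0.07 to -5.71 ± 0.11, and that of S100A12 to S100A8 by 0.24, from -3.43 ± 0.08 to -3.19 ± 0.16 (SD, n = 3 each). In the exact two-sided permutation test each of the 3 gave p = 0.1, the smallest that 3 against 3 allows, or 0.125 when adjusted over the 5 ratios computed. Only the first of the 5 ratios was planned, and the others were added after the values were seen. Per length, S100A9 exceeded S100A8 by 10.3-fold to 11.3-fold in the DMSO libraries and by 8.34-fold to 9.65-fold with WD6305.

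**Figure D2:**
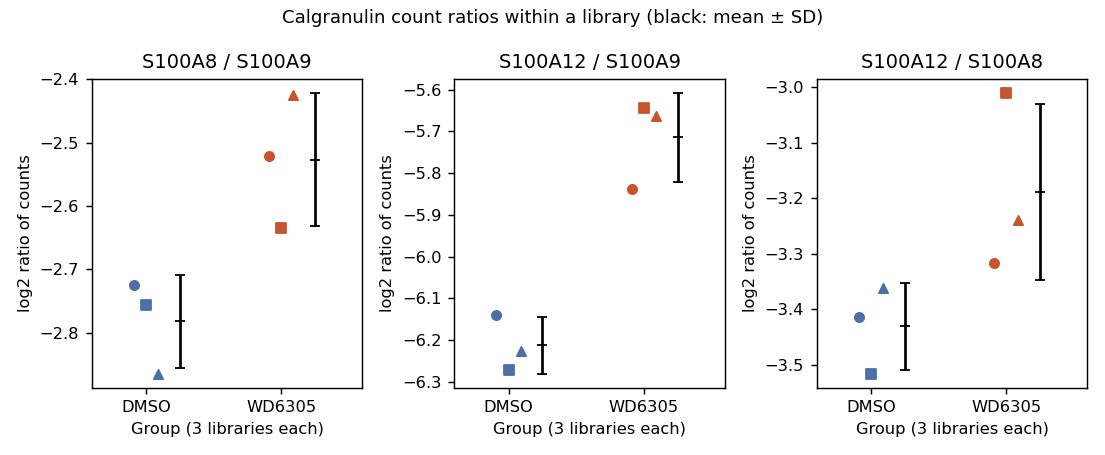
Log2 ratio of the counts of a pair of calgranulins within each library; coloured points are libraries, shaped by replicate number as 1 (circle), 2 (square) and 3 (triangle), and black marks are the mean ± SD of 3. The WD6305 points lie above the DMSO points in each panel, by a mean of 0.26, 0.50 and 0.24 from left to right.

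Together the 9 genes took 0.304%, 0.281% and 0.271% of all counts with DMSO and 0.442%, 0.470% and 0.503% with WD6305, a difference of 0.187 percentage points (exact two-sided permutation test, p = 0.1, the smallest possible). Nearly all of this was calgranulin RNA: S100A8, S100A9 and S100A12 held 88.3% ± 0.485 of the members' counts with DMSO and 93.0% ± 0.202 with WD6305 (SD, n = 3).

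S100A11, which binds annexin A1 and takes part in membrane repair and in the cornified envelope of keratinocytes, moved the other way. Its level was 152, 147 and 131 CPM with DMSO and 112, 117 and 117 CPM with WD6305. The WD6305 libraries lay close together and below every DMSO library. On the log2 scale it fell by 0.32 (SE 0.06), with adjusted p = 0.0056 in edgeR. ANXA1, its partner, had 76.6 ± 4.42 CPM with DMSO and 85.2 ± 5.29 CPM with WD6305, and did not pass (log2 fold change 0.15, adjusted p = 0.125, edgeR). The log2 ratio of ANXA1 to S100A11 was -0.99, -1.03 and -0.70 with DMSO and -0.42, -0.35 and -0.53 with WD6305 (exact two-sided permutation p = 0.1, adjusted 0.125). The groups did not overlap in that ratio.

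S100A4, which binds non-muscle myosin and is associated with cell motility, had 78.7, 70.3 and 58.9 CPM with DMSO and 76.9, 88.3 and 94.9 CPM with WD6305. WD6305 1 lay below DMSO 1, so the groups overlapped. The log2 fold change of 0.32 (SE 0.11, adjusted p = 0.068, edgeR) had an unadjusted 95% interval of 0.07 to 0.58 and did not pass. It passed without DMSO 1 or WD6305 1 (adjusted p = 0.0341 and 0.0483, edgeR), without DMSO 3 and WD6305 1 together (0.0230, edgeR), with a term that set those 2 libraries apart (0.0046, edgeR) and in DESeq2 (0.0099).

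S100A6, or calcyclin, a partner of CACYBP and annexin A11, had 66.1, 64.1 and 60.3 CPM with DMSO and 59.3, 71.6 and 81.8 CPM with WD6305. The WD6305 libraries spread on both sides of the DMSO range, with a log2 fold change of 0.16 (95% interval -0.08 to 0.40, adjusted p = 0.335, edgeR). S100A10, the ligand that tethers annexin A2 to the plasma membrane, had 63.0, 53.7 and 44.4 CPM with DMSO and 54.3, 66.5 and 60.3 CPM with WD6305, again overlapping (log2 fold change 0.17, 95% interval -0.12 to 0.45, adjusted p = 0.390, edgeR). The intervals leave room for rises of up to 0.40 and 0.45 on the log2 scale. Single libraries moved both values: that of S100A6 was 0.27 without WD6305 1 and 0.04 without WD6305 3, and that of S100A10 was 0.30 without DMSO 1, 0.09 without WD6305 2 and 0.05 without DMSO 3.

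The remaining members were scarcely expressed. S100A13, which takes part in the non-classical release of FGF1, was deposited with 189, 171 and 167 counts in DMSO 1, 2 and 3 and 131, 171 and 92 counts in WD6305 1, 2 and 3, lowest in WD6305 3. Its log2 fold change was -0.37 (95% interval -0.92 to 0.17, adjusted p = 0.312, edgeR), and was -0.58 without WD6305 2 and -0.17 without WD6305 3. S100A13 overlaps S100A1 on the opposite strand over 3435 bases and a long non-coding gene on its own strand over 5029 bases, so its reads may be shared. S100P, first found in placenta, was deposited with 43, 14 and 12 counts in the DMSO libraries and 46, 26 and 36 in the WD6305 libraries. DMSO 1 stood within the WD6305 range, and the interval of the log2 fold change (0.72, adjusted p = 0.429, edgeR) ran from -0.59 to 2.02. That value was 1.49 without DMSO 1, 0.47 without DMSO 2 or WD6305 1, and 0.41 without DMSO 3.

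**Figure D3:**
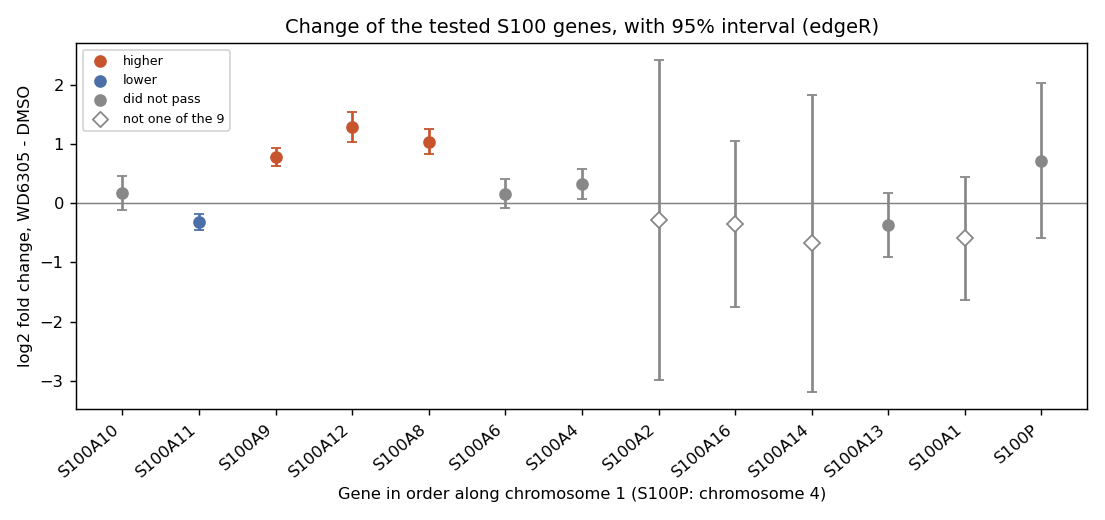
Log2 fold change (WD6305 minus DMSO) of the 13 tested S100 genes in their order along chromosome 1, with S100P of chromosome 4 last; bars are unadjusted 95% intervals from edgeR, filled circles the 9 members and open diamonds 4 other S100 genes. S100A9, S100A12 and S100A8 (0.78, 1.28 and 1.04) stand next to each other above 0, S100A11 (-0.32) lies below it, and S100A2 and S100A14 have the widest intervals.

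The 3 members that rose are neighbours along the chromosome. Between S100A10 and S100A13 the table lists 37 further genes that are not S100 genes, mostly of the keratinocyte envelope, such as FLG and the SPRR and LCE families. Of these, 12 were tested, and the rest were too low to be tested. Of the 12, 0 were called in edgeR, in DESeq2 or in limma on FPKM. In edgeR 0 had an unadjusted p under 0.05, and 23.4% of all tested genes were called. The groups overlapped in all 12, while they did not overlap for 40.8% of all tested genes. Summed keratinocyte markers were at 11.8 and 8.25 CPM in DMSO 3 and WD6305 1, against 225 to 274 CPM in the other libraries. Genes with that pattern vary within each group and could hardly be called. The absence of calls therefore does not show that these neighbours were unchanged. Whether the rise is confined to the calgranulins was not tested. Among the other S100 genes, 10 were matched and 5 tested, counting S100PBP, which encodes a binding protein of S100P. S100PBP rose from 34.7 ± 0.344 to 43.8 ± 2.18 CPM (log2 fold change 0.34, adjusted p = 0.0066, edgeR). S100A1 had 0.966 ± 0.188 and 0.640 ± 0.336 CPM and did not pass (log2 fold change -0.59, adjusted p = 0.410, edgeR). S100A3, S100A5, S100A7, S100B and S100G were too low to be tested. S100A3 overlaps S100A4 on the same strand over 1930 bases, and had a mean of 1.33 counts with DMSO and 0 with WD6305.

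S100A2, S100A14 and S100A16, S100 genes of epithelia, were low in 1 library of each group. Summed, they had 9.94 and 11.6 CPM in DMSO 1 and 2 and 7.17 and 8.47 CPM in WD6305 2 and 3, but 1.56 CPM in DMSO 3 and 0.747 CPM in WD6305 1. Keratinocyte markers moved with them: 13 of 15 were matched, and their summed level was 274, 253, 225 and 229 CPM in those 4 libraries and 11.8 and 8.25 CPM in DMSO 3 and WD6305 1. Of the 13, 4 were at 0 in DMSO 3 and 7 in WD6305 1, against 1 or 2 in the others, and KRT5, a keratin of basal keratinocytes, was at 0.131 and 0.0778 CPM there. Of the 11 that were tested, 0 were called in edgeR, DESeq2 or limma, and 0 had an unadjusted p under 0.05 in edgeR. Of all tested genes, edgeR called 23.4%. KRT2 was at 0 in every library. S100A8 and S100A9 are also made by stressed keratinocytes. S100A8 and S100A9 in DMSO 3, at 282 and 2052 CPM, were the lowest of the 6 libraries. WD6305 1, also low in keratins, had 605 and 3472 CPM. Without DMSO 3 and WD6305 1 the log2 fold changes were 1.01 for S100A8, 0.79 for S100A9, 1.34 for S100A12 and -0.36 for S100A11. Each of these passed (adjusted p = 0.00035 to 0.0023, edgeR). The 4 libraries kept were those with 225 to 274 CPM of keratinocyte markers. Any part of keratinocyte RNA in the calgranulin levels was not tested.

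**Figure D4:**
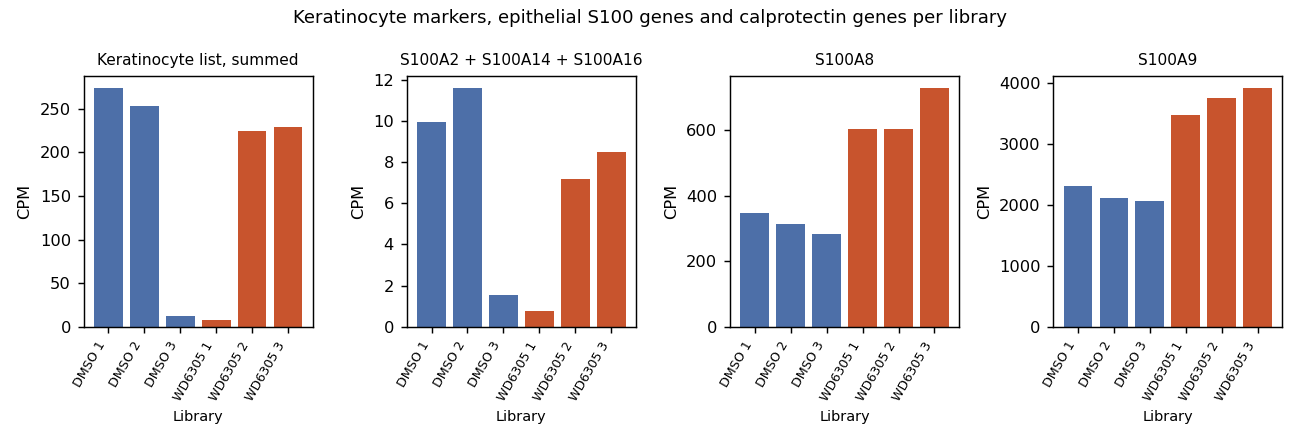
Level in CPM, on a linear axis from 0, of the summed keratinocyte markers, of the summed S100A2, S100A14 and S100A16, and of S100A8 and S100A9 in each of the 6 libraries; blue bars are DMSO and orange bars WD6305. The first 2 panels are low in DMSO 3 and WD6305 1, at 11.8 and 8.25 CPM for the keratinocyte markers. S100A8 and S100A9 are higher in all 3 WD6305 libraries than in the DMSO libraries.

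Markers listed as monocytic, among them ELANE and MPO, which are not particular to monocytes, were present in all 6 libraries. Of these markers 12 of 13 were matched and none was at 0. Their summed level was 7473 to 7987 CPM with DMSO and 13043 to 14442 CPM with WD6305. LYZ and ELANE made up 93.6% to 94.8% of that sum, and the other 10 markers summed to 476 to 483 CPM with DMSO and 745 to 765 CPM with WD6305. Both sums were higher in the same libraries as the calgranulins, and their part in the rise of the calgranulins was not tested. Of the 12, 8 rose and 2 fell (median log2 fold change 0.76), beside 12.2% higher and 11.2% lower of all tested genes. Those that rose included CD68, a lysosomal protein of macrophages (2.25-fold), ITGAX, an integrin (2.23-fold), ELANE, the neutrophil elastase (1.87-fold), and LYZ, lysozyme (1.82-fold). The 2 that fell were CD14, from 17.6 ± 0.290 to 13.6 ± 1.01 CPM, and MPO, myeloperoxidase, from 45.1 ± 2.15 to 35.5 ± 3.85 CPM. Only 1 of them fell without DMSO 1, DMSO 2, WD6305 1 or WD6305 2, and 0 without WD6305 3 (edgeR, unadjusted p under 0.05 for 10 of the 12 with all libraries). CD4 was near 0, at 0.419 ± 0.158 and 0.226 ± 0.058 CPM. Fibroblast markers summed to 2.46 to 4.64 CPM in 5 libraries and 44.6 CPM in WD6305 1. That library was the lowest of its group for S100A4, S100A6, S100A9, S100A10, S100A11 and S100A12, but not for S100A8, S100A13 or S100P. Any link of fibroblast RNA to these levels was not tested. Of 7 fibroblast markers 3 were tested, with 0 called in edgeR, DESeq2 or limma and 2 at an unadjusted p under 0.05 in edgeR. The 3 matched lymphoid markers summed to between 137 and 181 CPM, nearly all of it NKG7, and 0 of them were called in edgeR, DESeq2 or limma or had an unadjusted p under 0.05 in edgeR. METTL3 RNA had 67.3 ± 2.86 CPM with DMSO and 78.0 ± 1.88 CPM with WD6305 (log2 fold change 0.21, adjusted p = 0.022, edgeR), a call lost without DMSO 2 or any single WD6305 library (adjusted p up to 0.0931). Total counts ran from 64525948 to 71155346 per library.

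Receptors for S100 proteins and the signalling molecules behind them were mostly higher or did not pass. Of 19 tested, 9 rose and 3 fell (median log2 fold change 0.19), beside 12.2% higher and 11.2% lower of all tested genes. TLR4, the receptor that senses calprotectin and endotoxin, had 43.9, 39.5 and 45.8 CPM with DMSO and 62.6, 71.9 and 69.1 CPM with WD6305. The groups were well apart, with a log2 fold change of 0.66 (SE 0.08, adjusted p = 0.00065, edgeR). Its co-receptors did not rise. CD14 fell by 0.37 on the log2 scale (adjusted p = 0.0123, edgeR), a call lost without WD6305 2 or WD6305 3 (up to 0.0578), and LY96 was at 1.32 ± 0.175 and 0.765 ± 0.315 CPM and did not pass. AGER, which encodes RAGE, was at 3.23 ± 0.538 CPM with DMSO and 2.69 ± 0.652 CPM with WD6305 and did not pass (log2 fold change -0.26, 95% interval -0.78 to 0.25, edgeR).

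CD36, a scavenger receptor that takes up lipids and binds calprotectin-bound arachidonic acid, rose from 5.14 ± 0.781 to 11.3 ± 1.04 CPM, or 2.20-fold. ALCAM, an adhesion molecule, rose 1.95-fold, and CD33, an inhibitory lectin of myeloid cells, rose 1.23-fold. BSG, basigin, the highest of the list by FPKM, had 623 ± 37.3 and 602 ± 5.56 CPM and did not pass (log2 fold change -0.05). Among the signalling genes, the ubiquitin ligase TRAF6 rose by 0.46, the kinase IRAK4 by 0.41 and the stress kinase MAPK14 by 0.36, while the kinase IRAK1 fell by 0.46. The call of IRAK4 was lost in limma on log2(FPKM + 1) with no filter (adjusted p = 0.0588). MYD88, the adaptor that joins TLR4 to these kinases, had a log2 fold change of 0.12 and did not pass (adjusted p = 0.140, edgeR). TICAM1 and NFKB1 rose by 0.34 and 0.19, and both calls were lost when single libraries were left out (adjusted p up to 0.122 and 0.0723, edgeR). SCARB1, a lipoprotein receptor, fell 1.58-fold.

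Among binding partners inside the cell, 7 of the 22 genes tested went up and 4 went down, with a median log2 fold change of 0.05. Of all tested genes, 12.2% were called higher and 11.2% lower. Calprotectin carries arachidonic acid to the phagocyte NADPH oxidase, and its subunits differed. CYBB, the catalytic subunit, rose from 261 ± 12.7 to 369 ± 4.22 CPM and NCF4, a regulatory subunit, by 0.26 on the log2 scale. CYBA and NCF1 did not pass (log2 fold changes -0.12 and -0.19), and reads of NCF1 may be shared with its near-identical pseudogenes. PLAUR, the urokinase receptor of the plasminogen system that S100A10 serves, rose 1.84-fold from 50.4 ± 5.29 CPM.

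Annexins, the calcium-dependent membrane proteins that S100 dimers bridge, included both directions. ANXA11, a partner of S100A6, rose 1.27-fold and ANXA6 1.26-fold. ANXA2, the partner of S100A10, fell from 446 ± 15.2 to 402 ± 3.27 CPM (log2 fold change -0.15, adjusted p = 0.0369, edgeR). CACYBP, the partner of S100A6, fell by 0.18 (adjusted p = 0.0325, edgeR). Each lost its call without any of 5 single libraries (adjusted p up to 0.136 and 0.127, edgeR). The log2 ratio of ANXA2 to S100A10 was 2.87, 3.05 and 3.28 with DMSO and 2.88, 2.61 and 2.73 with WD6305, with WD6305 1 above DMSO 1 (exact two-sided permutation p = 0.2). NUCB1, a calcium-binding protein of the Golgi, rose 1.26-fold. SYT1, a partner of S100A13, was counted 15, 52 and 48 times in the DMSO libraries and 0, 0 and 2 times in the WD6305 libraries, and its fall passed in edgeR (adjusted p = 0.0057) but not in limma on log2(FPKM + 1) with no filter (0.0879), while DESeq2 gave it no adjusted p. The 4 falls became 2 without DMSO 1, DMSO 2, WD6305 2 or WD6305 3.

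**Figure D5:**
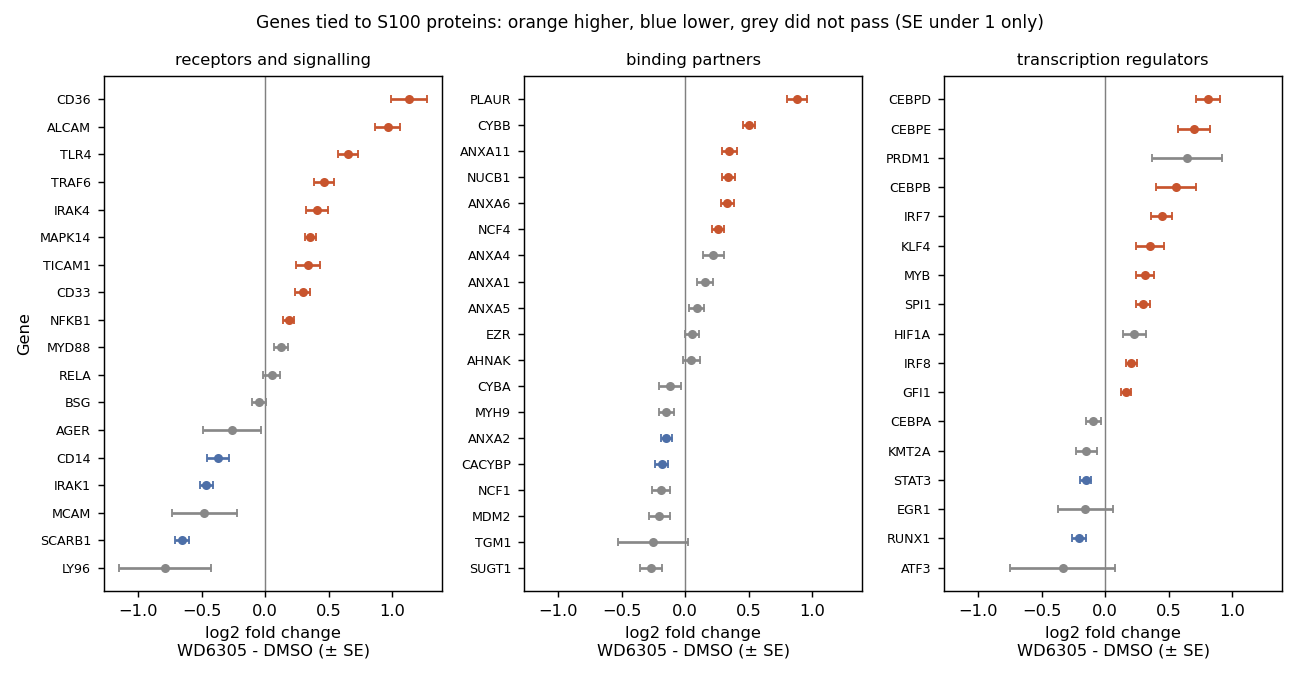
Log2 fold change (WD6305 minus DMSO, ± SE, edgeR) of receptors and signalling genes, binding partners and transcription regulators with an SE under 1, leaving out genes not reported here; orange points are higher, blue points lower, and grey points did not pass. CD36, PLAUR and CEBPD (1.13, 0.88 and 0.81) are the highest of those shown in their panels.

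Transcription factors that act on the calgranulin genes or in myeloid maturation rose in 9 of 17 and fell in 2. Their median log2 fold change was 0.23, and 12.2% of all tested genes were called higher and 11.2% lower. CEBPD had 36.4, 37.9 and 34.8 CPM with DMSO and 72.4, 55.9 and 62.9 CPM with WD6305, 1.75-fold higher, and CEBPE, the factor of late granulocyte maturation, rose 1.62-fold from 4.24 ± 0.310 CPM. SPI1, which encodes PU.1, rose from 319 ± 23.4 to 392 ± 6.12 CPM, and IRF7 rose by 0.45 on the log2 scale. CEBPA, the highest of these C/EBP genes by FPKM, had 388 ± 15.3 and 363 ± 27.2 CPM and did not pass (log2 fold change -0.09). IRF8, MYB, CEBPB, KLF4 and GFI1 rose by 0.20, 0.32, 0.55, 0.35 and 0.16, and STAT3 and RUNX1 fell by 0.16 and 0.21. The calls of these 7 genes were lost when 1 or more single libraries were left out (adjusted p up to 0.158, edgeR). The 9 rises became 5 without WD6305 3 and 6 without DMSO 1 or WD6305 2, and the 2 falls became 0 without DMSO 2, WD6305 2 or WD6305 3 (edgeR).

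Other EF-hand proteins served as a comparison by structure. Of 26 tested, 6 rose and 3 fell (median log2 fold change 0.06), beside 12.2% higher and 11.2% lower of all tested genes. The 4 with the smallest adjusted p were GCA, grancalcin, an EF-hand protein of neutrophil granules and membranes, which rose 2.29-fold from 5.66 ± 0.536 CPM, SDF4 and PDCD6, which rose 1.39-fold and 1.32-fold, and NCS1, a neuronal calcium sensor, which fell 1.61-fold. The other 2 that fell were CALM2, 1 of 3 calmodulin genes, and RCN1, by 0.16 and 0.21 on the log2 scale. Without WD6305 2 or WD6305 3 only 1 fell.

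Members were compared with each other after each profile over the 6 libraries was centred on its own mean. The smallest root mean square differences, in log2 CPM, were 0.107 between S100A4 and S100A10, 0.131 between S100A4 and S100A6, 0.148 between S100A8 and S100A9 and 0.158 between S100A8 and S100A12. These pairs did not form closed groups. S100A4 and S100A9 (0.244) and S100A11 and S100A13 (0.258) were as close as S100A9 and S100A12 (0.259). The largest difference, 0.897, was between S100A12 and S100A13. By the same measure, over 6188 other genes with a mean FPKM of at least 5, the genes most like S100A9 were LINC00482, RNASE3, a ribonuclease of granulocytes, and H2BC12 (0.036 to 0.040). Those most like S100A8 were LILRA2, RAB32 and TNFSF10 (0.081 to 0.096), and those most like S100A12 were LY86, BST1 and CDA (0.074 to 0.081). IDH2, YKT6 and HMGN2 were nearest to S100A11 (0.021 to 0.027). OST4, TRIM26 and TMEM251 were nearest to S100A4, ZBED10P, MED30 and TIPARP to S100A6, and ALKBH7, MEA1 and ORMDL2 to S100A10. S100A13 was nearest to RAB13, ALKBH4 and ARPC1A, and S100P had no close match, with SAGSIN1 nearest at 0.383. These distances are descriptions over 6 libraries that share 1 treatment contrast.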

How the data were processed

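Poly(A) RNA from TRIzol extracts was made into libraries with a dUTP second strand and read as paired ends, per the labels' protocols. The tools named per the submitters' processing notes are fastp, HISAT2, StringTie and edgeR, and the build is GRCh38. For their versions and settings, and the use of strand in counting, the sources used here give nothing. The authors deposited an estimated count and an FPKM value per gene and library. The deposited estimated counts are whole numbers that pile up at multiples of 4 among low genes (each library has 1071 to 1176 genes at exactly 4 and 553 to 636 at exactly 3), so they may overstate the number of read pairs, and no interval was taken from counting alone. The deposited FPKM values are scaled to length and library size.

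Genes were kept with filterByExpr (18138), scaled with TMM factors (0.987 to 1.02) and tested for WD6305 against DMSO with the quasi-likelihood test of edgeR 4.0.16 (R 4.3.3), two-sided, with no replicate block, at a Benjamini-Hochberg adjusted p of 0.05 over all tested genes. DESeq2 1.42.0, limma 3.58.1 on log2(FPKM + 1) or log2(FPKM + 0.1), other filters and scalings, and left-out libraries were alternatives. The fits were tested on simulated data. Same-numbered libraries did not deviate together from their group means (r = -0.18, 0.078 and -0.15), so the numbers were not taken to pair them. The largest r between a DMSO and a WD6305 library was 0.26, for DMSO 3 with WD6305 1. The members and lists were chosen with earlier results of these data known. Named genes were the 9 members, METTL3, any gene of the lists of other S100 genes, receptors, partners and regulators, up to 4 genes by adjusted p of each other list, and the 3 genes most like each member in profile. MPO, CALM2, RCN1, KRT2, KRT5, CD4 and NKG7 were named, and the monocytic sum without LYZ and ELANE was added, after the values were seen. S100A7A, S100Z, FGF1, FCN1, KRT9, LOR, CD3D, CD3E and MS4A1 had no match and were not analysed here. No protein was analysed here. Some genes that are counted among the binding partners are not reported here.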

Additional observations from a re-analysis of the deposited data

How the results depend on the processing

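S100A8, S100A9, S100A12 and S100A11 passed under each of 16 alternatives, with log2 fold changes of 0.94 to 1.12, 0.74 to 0.83, 1.22 to 1.38 and -0.38 to -0.28 and highest adjusted p-values of 0.0037, 0.0294, 0.0030 and 0.0282. S100A4 passed under 5 of 16. S100A6, S100A10 and S100A13 passed under 0 of 16 and S100P under 0 of the 14 that gave it an adjusted p, and the sign of all 5 was kept, with ranges of 0.22 to 0.42 (S100A4), 0.04 to 0.27 (S100A6), 0.05 to 0.30 (S100A10), -0.58 to -0.17 (S100A13) and 0.17 to 1.49 (S100P). With the replicate number as a replicate block, 3 members were again higher and 1 lower, and the adjusted p was 0.0032 for S100A8 and 0.139 for S100A4 (edgeR). Over all genes the block left 1736 higher and 1468 lower, against 2218 and 2031. Library sizes alone gave 1998 higher and 2334 lower, and limma on log2(FPKM + 1) with no filter gave 1368 higher. Leaving out single libraries gave 1446 to 2563 genes higher and 1310 to 2077 lower, the fewest without WD6305 3. Of the listed genes 13 fell, against 7 with no filter on low counts and 5 to 13 when single libraries were left out. The log2 fold change of S100A2 turned positive in limma on log2(FPKM + 0.1) (0.10), with the replicate block (0.075) and with a term for DMSO 3 and WD6305 1 (0.15), and ran from -0.86 to 0.55 when single libraries were left out, turning positive without DMSO 1 or WD6305 1 (0.24). When single libraries were left out, that of S100A16 ran from -0.78 to 0.10, positive without DMSO 2 or WD6305 1 (0.07), and that of ALKBH7 from -0.0079, without DMSO 3, to 0.21. None of the 3 had passed, and the cause was not tested. The difference of the S100A8 to S100A9 ratio was 0.20 to 0.31 when single libraries were left out, and that of the members' share of counts 0.171 to 0.201 percentage points. Of 61 other named genes with a call, 41 kept it under every alternative that fitted them. S100P could not be fitted with counts divided by 4, because it did not pass the filter. Low counts limit S100A13, S100P and the S100 genes of epithelia.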
